A study of Mus musculus with 2 samples.

Results

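The 10 genes described here encode the co-receptors and surface antigens by which T cells are commonly recognised: Cd4, Cd8a, Cd8b1, Cd2, Cd5, Cd6, Cd27, Cd28, Cd44 and Thy1. They were chosen by gene symbol, each matched 1 gene, and together they are 10 of the 27998 genes counted. They were measured by droplet single-cell RNA sequencing of peripheral blood mononuclear cells in 2 libraries. The mutant library came from mice carrying the V377I and del91 alleles of Mvk, the gene of mevalonate kinase, an early enzyme of the isoprenoid and cholesterol pathway. The wildtype library came from mice with both Mvk alleles intact. All mice were 10-week-old C57Bl/6 females, the blood of 3 mice per genotype was pooled into 1 library, and both pools went through Ficoll separation, red cell lysis and a sort of live cells lacking the red cell antigen Ter119. Each genotype is therefore 1 pool and 1 library, so genotype, pool and library cannot be told apart, no p-value is given, and every interval below is a 95% interval for counting error only.

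A mature T cell reads peptide on MHC molecules through its T cell receptor and the Cd3 chains. Cd4 binds MHC class II and Cd8, a dimer of the Cd8a and Cd8b1 products, binds MHC class I, and both bring the kinase Lck to the receptor. Mature peripheral T cells usually keep 1 co-receptor and silence the other. Cd28 and the TNF receptor family member Cd27 deliver costimulation, Cd2 is an adhesion receptor that binds Cd48 in the mouse, and Cd5 and Cd6 are scavenger-receptor family proteins that tune receptor signalling. Cd44 binds hyaluronan and is high on antigen-experienced cells, and Thy1 is a GPI-anchored antigen long used to mark mouse T cells.

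The files held 14513059 UMIs in the mutant library and 15385199 in the wildtype one, and the libraries shared 28 cell barcodes. After filtering, 4190 mutant and 5225 wildtype cells remained, with medians of 1968 and 2036 UMIs, the molecular tags that count single transcripts. Cells with at least 2 UMIs of Cd3d, Cd3e and Cd3g were called T-like, and they numbered 2458 in the mutant library and 3022 in the wildtype library. T-like cells were split by the summed UMIs of Cxcr3, Il2rb, Gzmm, Klrc1 and Xcl1 into set-high cells with at least 3 (103 mutant and 237 wildtype cells) and set-low cells with at most 1 (2295 mutant and 2670 wildtype cells). NK-like cells numbered 178 and 812, B-like cells 1119 and 1012, and monocyte-like cells 117 and 99 in the mutant and wildtype libraries. On marker genes that the gates did not use, each class held its own list. The summed level of 6 T cell markers was 1556 to 2420.4 UMIs per 1000000 UMIs (CPM) in the T-like subsets and 117 to 172 CPM in B-like and monocyte-like cells. NK-like cells carried 856 CPM of the T list in the mutant library and 865 CPM in the wildtype library. Red cell transcripts stood at 12214 CPM in mutant and 1638 CPM in wildtype set-low cells, and at 9799 and 225 CPM in set-high cells. In the mutant and wildtype libraries they stood at 11001.5 and 288 CPM in B-like, 5650 and 276 CPM in NK-like, and 6979 and 308 CPM in monocyte-like cells. Platelet transcripts stood at 101 CPM in mutant and 14.8 CPM in wildtype set-low cells, and at 5841 and 706 CPM in monocyte-like cells. Neutrophil markers stood at 351 CPM in mutant and 2689 CPM in wildtype monocyte-like cells. The part of these transcripts in the results below was not tested, but ratios without haemoglobin genes in the total were computed as an alternative. Among the antigens described here, Cd4, Cd8a, Cd8b1, Cd5 and Cd6 lay far below their T-like level outside T-like cells in both libraries. The other antigens did not all do so. Cd2 was as high in NK-like and B-like cells, and Cd44 was higher in NK-like, B-like and monocyte-like cells. Cd27, Cd28 and Thy1 were present in NK-like cells at lower levels than in T-like cells. Mvk itself gave 47 UMIs in the mutant library and 65 in the wildtype library (4.98 and 5.45 CPM over all cells). A count of 3′ ends does not separate its alleles.

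In the GRCm38 annotation (GENCODE M21) the co-receptor genes lie on chromosome 6. Cd8b1 (positions 71322788 to 71337494) and Cd8a (71373427 to 71379173) are neighbouring genes on the plus strand, 35933 bases apart. Cd4 (124864692 to 124888221, minus strand) is next to the inhibitory receptor gene Lag3, and Cd27 (125232622 to 125237010, minus strand) overlaps Vamp1 on the opposite strand. Whether the counting used the strand is not given in the sources used here, so reads of Cd27 and Vamp1 may not be fully separated. Cd5 (10717116 to 10739002) and Cd6 (10789341 to 10830058) are neighbours on the minus strand of chromosome 19, 50339 bases apart, and Cd28 on chromosome 1 lies next to Ctla4.

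The question of where the 10 antigens were found was answered first by setting T-like cells against the other classes, whose gates used none of the 10. A gene was counted as measured when the compared classes held at least 100 of its UMIs together, and as past the fold at a ratio of 1.5 or more either way. Where a class holds few UMIs of a gene, counting error alone can carry it past the fold, so a count of genes past the fold is no test. Of 10 measured members, 8 were higher in T-like than in NK-like cells by that fold in the mutant library, where 18.1% of all measured genes were, and 1 was lower, where 23.9% were. The wildtype library gave the same counts, against 13% and 27.3% of all genes. Against B-like cells 8 members were higher in each library (12.1% of all genes in the mutant library and 13.7% in the wildtype one). The member that was lower by the fold was Cd44, in the mutant library only (18% of all genes, and 17.1% in the wildtype library). Against monocyte-like cells 9 members were higher in both libraries (32.8% and 31.7% of all genes) and Cd44 was lower (23.1% and 24.5%).

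The co-receptors and the Cd5 and Cd6 pair were low in every class but T-like cells. They had the highest T-like to NK-like ratios of the members. Cd4 stood at 63.6 CPM in mutant T-like cells, against 2.57 CPM in NK-like, 4.15 CPM in B-like and 3.00 CPM in monocyte-like cells of that library. In the wildtype library Cd4 stood at 63.4 CPM in T-like cells, against 5.30, 5.21 and 3.90 CPM in NK-like, B-like and monocyte-like cells. Its level in T-like cells was thus 15.3 times (7.98 to 33.8) the B-like level in the mutant library and 12.2 times (6.56 to 25.5) in the wildtype library. Cd8a had 163 CPM in mutant T-like cells and 198 CPM in wildtype T-like cells, and between 3.90 and 12.5 CPM in every other class. Cd8b1, the beta chain gene, had 501 CPM in mutant and 589 CPM in wildtype T-like cells, and 12.9 to 37.1 CPM elsewhere. Cd5 had 76.5 CPM in mutant and 76.6 CPM in wildtype T-like cells, and Cd6 had 128 and 119 CPM, whereas neither gene exceeded 8.33 CPM in another class. These residual levels were small against the RNA of barcodes with at most 20 UMIs, which hold free transcripts rather than cells. B-like cells carried Cd4 at 12.6% of its free-RNA level in the mutant library and 11.4% in the wildtype library, and Cd8b1 at 12.2% and 10.6%.

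**Figure D1:**
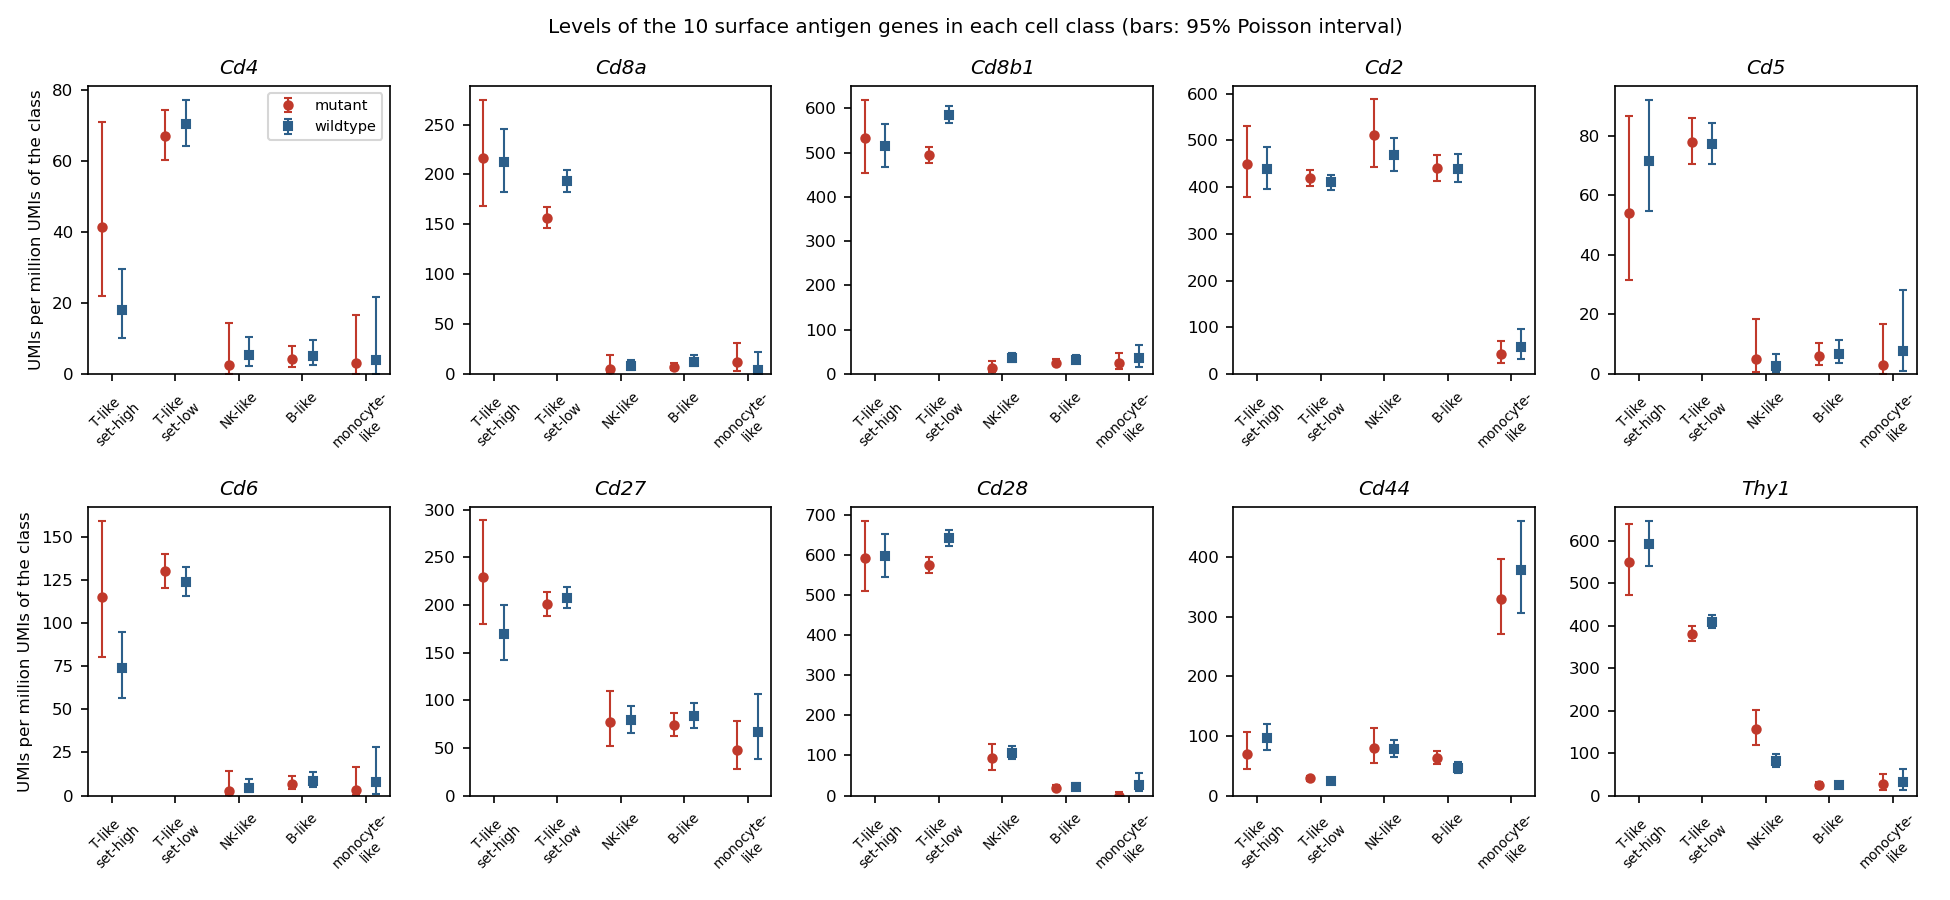
Level of each of the 10 genes (CPM of the class, linear axes starting at 0) in 5 cell classes of the mutant (red circles) and wildtype (blue squares) libraries, with 95% Poisson intervals. Cd4, Cd8a, Cd8b1, Cd5 and Cd6 are near 0 outside T-like cells, Cd2 is as high in NK-like and B-like cells, and Cd44 is highest in monocyte-like cells.

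Cd2 and Cd44 did not follow that pattern. Cd2 had 422 CPM in mutant and 415 CPM in wildtype T-like cells, 512 and 469 CPM in NK-like cells, and 441 and 439.6 CPM in B-like cells. Its T-like to B-like ratio was 0.956 (0.887 to 1.03) in the mutant library and 0.945 (0.875 to 1.02) in the wildtype library. Monocyte-like cells had only 42.0 CPM of Cd2 in the mutant library and 58.5 CPM in the wildtype library. Cd44 was lowest in set-low T-like cells, at 28.7 CPM in the mutant library and 24.1 CPM in the wildtype library. It reached 330.2 CPM in mutant and 379 CPM in wildtype monocyte-like cells, where 53.0% and 52.5% of cells had at least 1 Cd44 UMI. The T-like level was 0.0966 (0.0759 to 0.123) of the monocyte-like level in the mutant library and 0.0887 (0.0700 to 0.113) in the wildtype library.

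Costimulatory Cd27 and Cd28 and the antigen Thy1 lay between these extremes when T-like cells were set against NK-like cells. Against B-like cells Cd28 had the highest T-like ratio of the members, 30.4 for mutant and 28.5 for wildtype cells. The Thy1 ratios to B-like cells, 15.9 for mutant and 18.2 for wildtype cells, exceeded those of Cd4 and Cd5. Cd27 had 203 CPM in mutant and 204 CPM in wildtype T-like cells, 2.64 times (1.84 to 3.92) and 2.59 times (2.14 to 3.14) the NK-like level, which was 77.2 CPM in the mutant and 78.9 CPM in the wildtype library. B-like cells carried Cd27 at 73.8 and 83.3 CPM, and 12.2% of mutant and 13.5% of wildtype B-like cells had a Cd27 UMI. Cd28 had 575 CPM in mutant and 638 CPM in wildtype T-like cells. It stood at 92.6 CPM in mutant and 106 CPM in wildtype NK-like cells and at 18.9 and 22.4 CPM in B-like cells. No Cd28 UMI was found in the 117 mutant monocyte-like cells, which allows up to 9.01 CPM, and 7 UMIs were found in the 99 wildtype ones. Thy1 had 396 CPM in mutant and 436 CPM in wildtype T-like cells, 157 and 82.2 CPM in NK-like cells, and 24.9 and 24.0 CPM in B-like cells. In NK-like cells Cd27, Cd28, Thy1 and Cd44 stood at 64.9%, 31.3%, 67.4% and 158% of their free-RNA levels in the mutant library, whereas Cd4, Cd8a, Cd8b1, Cd5 and Cd6 lay between 3.39% and 13.6%. In the wildtype library the values were 47.2%, 25.2%, 31.3% and 200%, whereas the other genes named lay between 6.01% and 12.0%.

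Most T-like cells carried several of the antigens at once, each by few transcripts. The median T-like cell held UMIs of 3 of the 10 genes in the mutant library and 4 in the wildtype library, and 2.44% and 1.85% of T-like cells held none. NK-like, B-like and monocyte-like cells held a median of 1. Cd28 was found in 67.4% of mutant and 72.5% of wildtype T-like cells, Cd2 in 58.5% and 60.4%, and Thy1 in 53.0% and 59.3%. Cd4 was found in only 13.1% of mutant and 13.7% of wildtype T-like cells, and 86.6% and 83.8% of those cells held exactly 1 Cd4 UMI. Cd8b1-positive cells held a mean of 3.00 UMIs in the mutant library and 3.25 in the wildtype library. An absent Cd4 UMI therefore does not mark a cell without Cd4. With every T-like cell thinned to 800 UMIs, Cd4 was found in 5.82% of mutant and 5.92% of wildtype T-like cells, and Cd8b1 in 24.6% and 28.4%.

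The split of T-like cells by Cxcr3, Il2rb, Gzmm, Klrc1 and Xcl1 uses none of the 10 antigens. Among measured members, 1 of 10 was higher in set-high than in set-low cells by 1.5-fold in each library (14.8% of all measured genes in the mutant library and 11.8% in the wildtype one). In the mutant library 1 of 10 was lower and in the wildtype library 2 of 10 (11.8% and 8.51% of all genes). These shares are near those of all genes, and the median log2 ratio of the members was 0.11 in the mutant library and -0.10 in the wildtype one, against 0.14 and 0.11 for all measured genes. Relative to those medians, Cd8b1, Cd27 and Cd28 lay near or below the typical gene. Under scaling without ribosomal, mitochondrial and haemoglobin genes the mutant ratios of Cd8b1 and Cd28 crossed 1, to 0.974 and 0.932, as did those of Cd2, to 0.970 in the mutant library and 0.9748 in the wildtype one. The mutant Cd28 ratio was 0.968 under median-of-ratios scaling, whereas the directions of Cd44, Cd4, Cd6 and Thy1 held under both other scalings.

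Cd44 was the member that was higher. It had 70.2 CPM in set-high and 28.7 CPM in set-low cells of the mutant library, a ratio of 2.44 (1.49 to 3.84), and 96.6 CPM against 24.1 CPM in the wildtype library, a ratio of 4.01 (3.03 to 5.27). A Cd44 UMI was found in 19.4% of set-high and 5.40% of set-low mutant cells, and in 30.8% and 5.36% of wildtype cells. Set-high cells were deeper, with median UMIs of 2831 against 2127 in the mutant library and 3300 against 2275.5 in the wildtype library. After thinning to 800 UMIs the shares with Cd44 were 8.74% and 2.004% in the mutant library and 5.91% and 2.06% in the wildtype library. Thy1 was also higher in set-high cells of both libraries without reaching the fold, at 552 against 382 CPM in the mutant and 593 against 410.2 CPM in the wildtype library, ratios of 1.44 (1.23 to 1.69) and 1.45 (1.31 to 1.59).

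Cd4 was the co-receptor gene that was lower in set-high than in set-low cells by 1.5-fold or more in both libraries, within counting error in the mutant one. In the wildtype library it had 17.9 CPM in set-high and 70.5 CPM in set-low cells, a ratio of 0.254 (0.141 to 0.423). The mutant ratio was 0.618, from 13 UMIs in set-high cells (41.5 CPM) and 355 in set-low cells (67.0 CPM), and its interval of 0.326 to 1.07 includes 1. Cd6 had 74.0 CPM in set-high and 124 CPM in set-low wildtype cells, a ratio of 0.597 (0.454 to 0.774), and 115 and 129.9 CPM in the mutant library, a ratio of 0.884 (0.614 to 1.24). Cd5 had 54.2 and 78.0 CPM in the mutant and 71.6 and 77.3 CPM in the wildtype library, with intervals that include 1 in both. Cd8a was at 217 CPM in set-high and 156 CPM in set-low mutant cells (ratio 1.39, 1.07 to 1.78) and at 212 and 193 CPM in the wildtype library (1.10, 0.933 to 1.29). Cd8b1 was at 533 CPM in set-high and 494 CPM in set-low mutant cells (1.08, 0.916 to 1.26). In the wildtype library it was at 514 and 585 CPM, a ratio of 0.878 with an interval (0.793 to 0.971) below 1. That interval takes UMIs as independent, although 1 cell can hold several. A Cd8b1 UMI was found in 46.8% (40.3 to 53.4) of set-high and 45.2% (43.3 to 47.1) of set-low wildtype cells. After thinning the shares were 26.6% and 28.0%. Cd2 differed little, with ratios of 1.07 (0.898 to 1.27) in the mutant and 1.07 (0.957 to 1.19) in the wildtype library. NK cell markers outside the split were also higher in set-high cells, at 3836 against 959 CPM in the mutant library and 5496 against 1458 CPM in the wildtype one. Of set-high cells, 19.4% in the mutant library and 29.5% in the wildtype one met the NK-like marker sum. Without T-like cells that met another class's sum, the Cd44 ratio was 3.75 in the mutant library and 5.02 in the wildtype one, and the Cd4 ratio was 0.723 and 0.237.

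**Figure D2:**
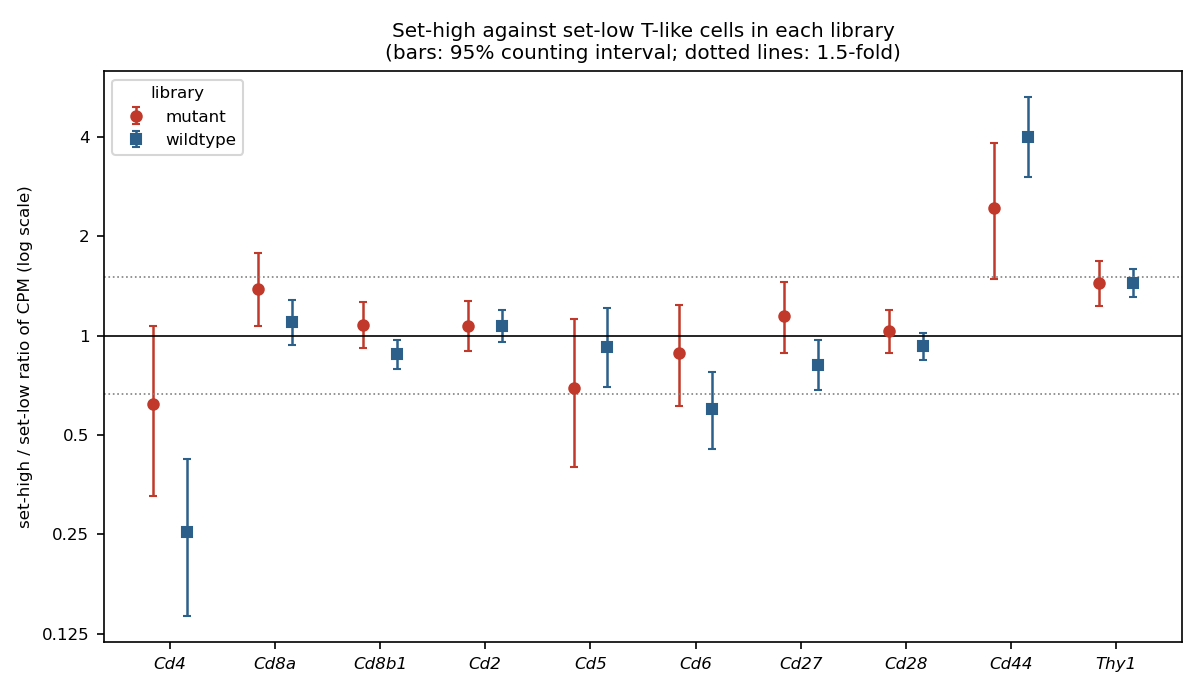
Ratio of the level in set-high to that in set-low T-like cells (log scale) for each gene in the mutant (red circles) and wildtype (blue squares) libraries, with 95% counting intervals and dotted lines at 1.5-fold. Cd44 lies above the upper line in both libraries, at 2.44 and 4.01, and Cd4 below the lower line, at 0.618 and 0.254.

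Genes of related pathways were described beside the antigens in the same split. Of 9 naive T cell genes, all measured, 8 in the mutant library and 6 in the wildtype one were lower in set-high cells by 1.5-fold and none was higher. The median log2 ratio of that list was -1.21 in the mutant library and -1.03 in the wildtype one. Lef1, a transcription factor of naive T cells, had 204 CPM in set-high and 594 CPM in set-low mutant cells and 143 and 604 CPM in wildtype cells. Ccr7, the lymph node homing receptor, had 271 and 853 CPM in the mutant library and 352 and 951 CPM in the wildtype library. Igfbp4 and Dapl1 showed the lowest ratios of the list, 0.197 and 0.118 in the mutant and 0.0917 and 0.168 in the wildtype library. Tcf7 and S1pr1 were also lower by the fold in both.

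Among 11 other costimulatory receptors, 4 of 8 measured were higher by the fold in mutant set-high cells and 4 of 9 in wildtype ones, and 0 and 2 (Cd40lg and Slamf6) were lower. Of all measured genes 14.8% and 11.8% were higher, and 11.8% and 8.51% lower. The 4 higher receptors were Cd7, Cd226, Ly9 and Tnfrsf18 in both libraries. Cd7 had 421 CPM in set-high and 96.5 CPM in set-low mutant cells, and 361 and 108 CPM in the wildtype library. Of the inhibitory receptors 4 were measured. Cd160 was 21.9 times (14.5 to 33.2) higher in mutant and 12.0 times (9.08 to 16.0) higher in wildtype set-high cells, and Ctla4, with only 3 mutant and 10 wildtype UMIs in set-high cells, had 9.57 against 18.3 CPM and 11.9 against 21.6 CPM. Btla was also lower in the mutant library. Of the T cell receptor and proximal signalling genes 13 of 14 were measured. The kinase genes Zap70 and Fyn were higher by the fold in both libraries, at ratios of 1.94 and 1.60 in the mutant and 1.57 and 1.52 in the wildtype library. Themis was lower in the mutant library, and Cd247 was lower in the wildtype library. Among 7 measured ligands of the members, Cd48, the ligand of Cd2, was higher (ratios 1.89 and 1.97), and Cd72, the reported ligand of Cd5, was higher in the wildtype library (1.89, 1.44 to 2.43). The MHC class II genes H2-Aa, H2-Ab1 and H2-Eb1 were lower, H2-Aa at 0.352 and 0.530. B-like marker sums were met by 0.971% of set-high and 5.19% of set-low mutant cells and by 3.38% and 4.12% of wildtype cells, and the part of such cells in the class II values was not tested. Of the regulators tied to Cd4 or Cd8 lineage choice, Gata3 and Runx3 were higher in set-high cells of both libraries, Eomes was higher in the wildtype library and Satb1 was lower in both.

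Cd4 and Cd8 transcripts were rarely found in the same T-like cell. A Cd8a or Cd8b1 UMI was found in 12.5% (9.05 to 16.6) of 321 Cd4-positive and 46.8% (44.7 to 48.9) of 2137 Cd4-negative mutant T-like cells. In the wildtype library the shares were 16.9% (13.5 to 20.9) of 413 and 54.6% (52.6 to 56.5) of 2609 cells. Read the other way, a Cd4 UMI was found in 3.85% of 1040 Cd8-positive and 19.8% of 1418 Cd8-negative mutant T-like cells, and in 4.69% of 1494 and 22.4% of 1528 wildtype cells. Co-detection in 40 mutant and 70 wildtype cells compares with 135.8 and 204 cells that independent detection would give. After thinning to 800 UMIs, 4.90% of Cd4-positive and 30.2% of Cd4-negative mutant T-like cells had a Cd8 UMI, and 8.94% and 35.1% of wildtype ones.

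Many of the cells with both co-receptors rested on single transcripts, in the mutant library most of them. Of the 40 mutant cells, 30 held exactly 1 UMI of each co-receptor and 0 held at least 2 of each. Of the 70 wildtype cells, 33 held exactly 1 of each, 41 held exactly 1 Cd8 UMI and 3 held at least 2 of each. Their median depth was 2329.5 UMIs in the mutant library and 2851 in the wildtype one, against 1997 and 2109 for cells with Cd4 alone. B-like cells, which should lack both, had a Cd8 UMI in 6.26% (4.91 to 7.84) of those in the mutant library and 8.10% (6.496 to 9.96) in the wildtype one, at median depths of 1586 and 1579 UMIs. They had a Cd4 UMI in 0.804% and 0.988%. After thinning, the Cd8 share of Cd4-positive T-like cells was 4.90% (1.99 to 9.83) against 2.77% (1.89 to 3.91) of B-like cells in the mutant library, with intervals that overlap. In the wildtype library it was 8.94% (5.20 to 14.1) against 3.36% (2.34 to 4.66), with intervals that do not. The thinned mutant share rests on 7 of 143 cells, and overlap of intervals is no test. As counted, the mutant shares were 12.5% (9.05 to 16.6) of Cd4-positive T-like and 6.26% (4.91 to 7.84) of B-like cells, with intervals that do not overlap, at unlike depths. Whether a Cd8 UMI in a Cd4-positive cell is background was not tested. With at least 2 Cd8 UMIs asked of a cell, the Cd8 share among Cd4-positive cells was 2.18% in the mutant library and 7.02% in the wildtype one. Neither co-receptor was found in 46.3% of mutant and 39.2% of wildtype T-like cells.

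**Figure D3:**
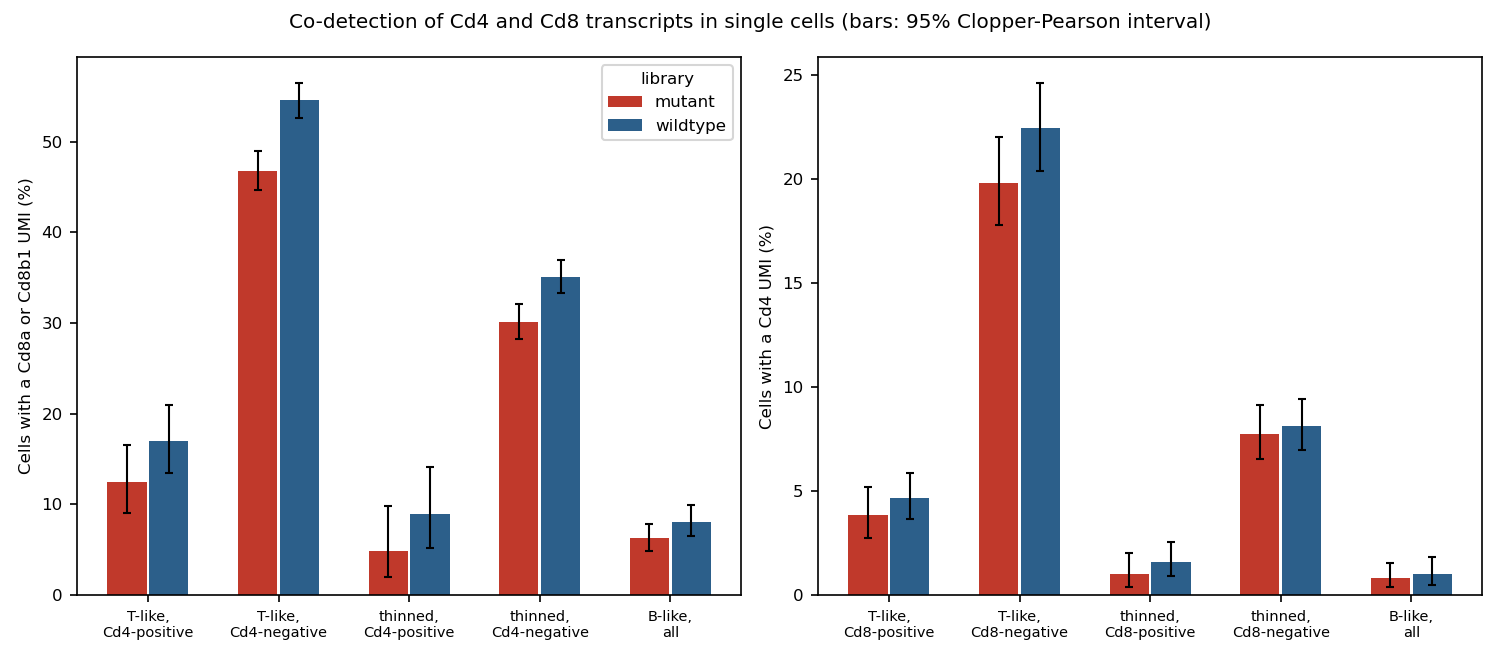
Share of cells with a Cd8a or Cd8b1 UMI (left) and with a Cd4 UMI (right), in percent, among T-like cells with and without the other co-receptor, as counted and after thinning each cell to 800 UMIs, and among all B-like cells. Red bars are the mutant and blue bars the wildtype library, with 95% Clopper-Pearson intervals, and in each library the share is lower among cells that hold the other co-receptor.

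The chains of the Cd8 dimer were often found together. Of Cd8a-positive T-like cells, 87.6% (84.7 to 90.2) in the mutant and 88.6% (86.3 to 90.6) in the wildtype library also held Cd8b1. Of Cd8a-negative T-like cells, 24.1% and 28.4% held it. Read the other way, 53.4% of mutant and 56.4% of wildtype Cd8b1-positive cells held Cd8a. After thinning, 61.6% of mutant and 56.8% of wildtype Cd8a-positive cells held Cd8b1. T-like cells held 3.07 Cd8b1 UMIs per Cd8a UMI (2.85 to 3.30) in the mutant and 2.97 (2.80 to 3.15) in the wildtype library. How well each transcript is captured was not measured, so the ratio is read only between classes. It was 2.46 (1.84 to 3.31) in set-high and 3.16 (2.92 to 3.42) in set-low cells of the mutant library, and 2.42 (2.03 to 2.90) and 3.03 (2.84 to 3.23) in the wildtype library. Among Cd8-positive cells, those with Cd8a alone made up 17.0% (9 of 53) of set-high and 6.43% (61 of 949) of set-low mutant cells. In the wildtype library they made up 13.3% (17 of 128) and 6.22% (80 of 1287). After thinning the shares were 20% (8.44 to 36.9) and 13.8% (11.2 to 16.7) in the mutant library and 23.2% (14.6 to 33.8) and 14.4% (12.1 to 16.9) in the wildtype library, so that the set-high and set-low intervals overlapped in both. Among B-like cells with a Cd8 UMI the Cd8a-only share was 20% in the mutant library and 26.8% in the wildtype one.

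T-like cells with Cd4 alone were next set against those with Cd8 alone, 281 against 1000 cells in the mutant library and 343 against 1424 in the wildtype one. Cd4, Cd8a and Cd8b1 chose these cells, so their own values are no result. Among the other 7 antigens Cd5 was higher in mutant Cd4-positive cells by 1.5-fold, where 4.88% of all measured genes were higher and 4.64% lower. None passed the fold in the wildtype library, where 6.07% of genes were higher and 4.29% lower. Cd5 had 99.99 CPM in Cd4-positive and 54.2 CPM in Cd8-positive mutant cells, a ratio of 1.84 (1.34 to 2.51), and 94.5 and 63.2 CPM in wildtype ones, or a ratio of 1.49 (1.14 to 1.94). Cd28 was higher in Cd4-positive cells of both libraries, at 668 against 487 CPM in the mutant library and 779 against 564 CPM in the wildtype one, ratios of 1.37 (1.22 to 1.54) and 1.38 (1.26 to 1.51). Cd27 ratios were 1.21 (0.993 to 1.46) and 1.22 (1.03 to 1.44), and Cd2 ratios 1.17 (1.02 to 1.34) and 1.13 (1.001 to 1.27). Thy1 was lower in mutant Cd4-positive cells, at 0.784 (0.675 to 0.906), and its wildtype ratio of 0.918 (0.816 to 1.03) had an interval that includes 1. The 6 NK cell markers summed to 653 CPM in Cd4-positive and 1672 CPM in Cd8-positive mutant cells and to 1063 and 2135 CPM in wildtype cells, and their part in these ratios was not tested. The median depth was 1997 UMIs in Cd4-positive and 2457 in Cd8-positive mutant cells, and 2109 and 2618 in wildtype cells.

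Genes outside the list were then ranked by how strongly they separated the same cells. Being extremes of many genes, they exceed the other antigens by selection, which is no result. Among 3335 genes measured in both libraries, with the members and genes of provisional name (Gm and Rik) left out, the 8 with the highest smaller ratio on the Cd4 side were Ly6c1, Izumo1r, Tesc, Ly6a, Stmn1, Dusp10, Cd81 and Trib2. Izumo1r, a surface protein gene of regulatory and other Cd4 T cell subsets in the mouse, had 102 CPM in Cd4-positive and 27.7 CPM in Cd8-positive mutant cells, and 112 and 29.4 CPM in wildtype cells. Dusp10, a phosphatase of the JNK and p38 kinases, had 457 and 186 CPM in the mutant library and 441 and 139 CPM in the wildtype one. On the Cd8 side the 8 genes were Lcn4, Ly6c2, Ehd1, Klrd1, Cst7, Ms4a4c, Racgap1 and Glipr2. Klrd1, the partner of the Nkg2 receptors, had 73.3 CPM in Cd4-positive and 309 CPM in Cd8-positive mutant cells, and 88.1 and 335 CPM in wildtype cells. Lcn4 gave 1 UMI in Cd4-positive and 194 in Cd8-positive mutant cells, a ratio of 0.0226 (5.7e-04 to 0.128), and 2 and 274 UMIs in wildtype ones, or 0.0374 times (0.00451 to 0.137). Ly6c1 and Ly6c2 are near-identical neighbours in sequence, so their reads may be split between them. With that limit, Ly6c1 had 133 against 17.4 CPM in the mutant and 129 against 18.9 CPM in the wildtype library, and Ly6c2 had 36.7 against 479 CPM and 71.5 against 519 CPM.

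**Figure D4:**
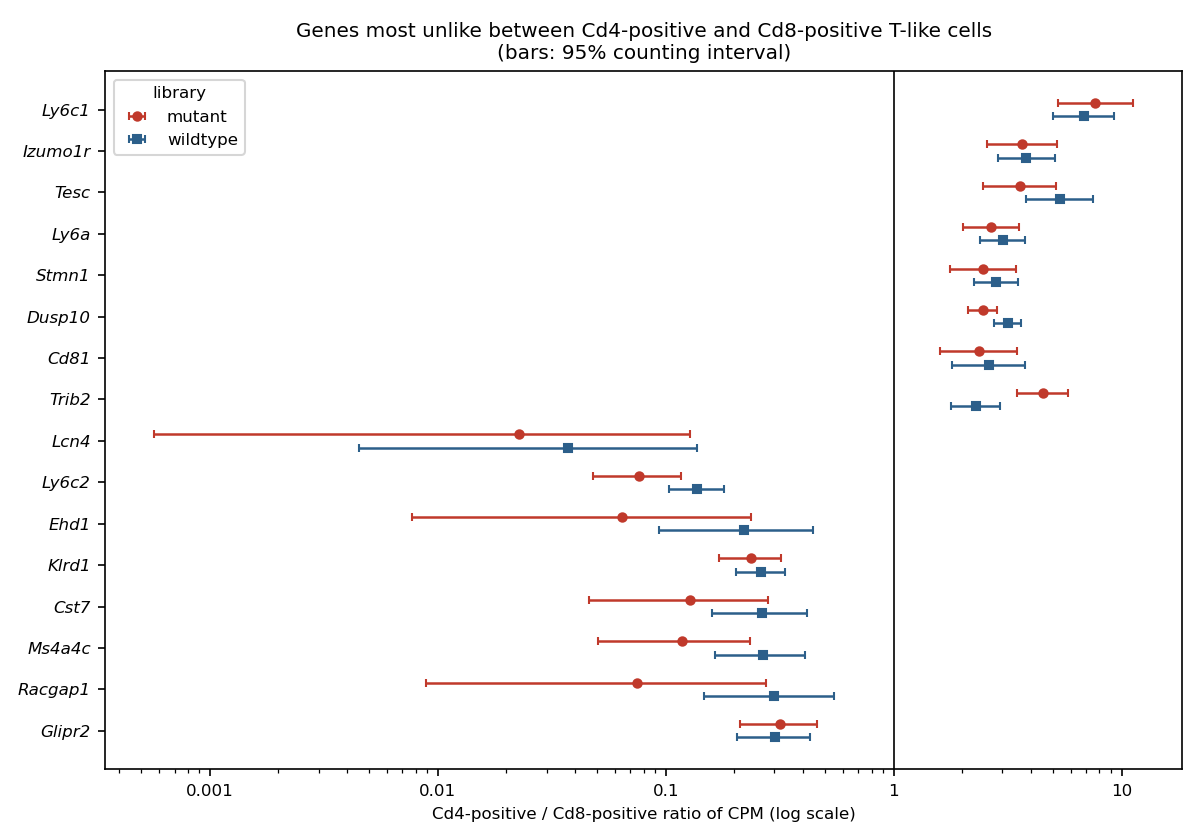
Ratio of the level in Cd4-positive to that in Cd8-positive T-like cells (log scale) for the 16 genes outside the members, provisional names left out, that differed most in both libraries, mutant as red circles and wildtype as blue squares, with 95% counting intervals. By the way they were chosen, the upper 8 genes lie above 1 and the lower 8 below 1 in both libraries, and Lcn4 has the lowest ratios.

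Of the gene lists, Icos, a costimulatory receptor of the Cd28 family, was higher in Cd4-positive cells by the fold (1.57, 1.08 to 2.25 in the mutant and 1.95, 1.46 to 2.57 in the wildtype library), as were Runx1 and Igfbp4 in both libraries and S1pr1 in the mutant one. Cd226, Cd7 and Runx3, the transcription factor that silences Cd4 in the Cd8 lineage, were lower. Runx3 gave 21 UMIs in Cd4-positive and 273 in Cd8-positive mutant cells, a ratio of 0.338 (0.206 to 0.527), and 31.9 against 114 CPM in wildtype cells. Of 13 measured receptor and proximal signalling genes 0 passed the fold in the mutant library and 1, Cd247, in the wildtype library. Lck, which both co-receptors bind, had ratios of 0.947 (0.840 to 1.07) in the mutant and 1.01 (0.912 to 1.12) in the wildtype library. Among the 5 regulators of the Cd4 lineage 3 were measured, and Gata3 and Tox were higher in the mutant library and Satb1 in the wildtype library. Of 7 measured ligands, Cd72 was lower in the mutant library, and no measured inhibitory receptor passed the fold in either.

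Between the libraries the antigens differed little within T-like cells. None of 10 measured members passed 1.5-fold between mutant and wildtype T-like cells, where 2.91% of all measured genes did. Cd4 had 63.6 CPM in mutant and 63.4 CPM in wildtype T-like cells, a ratio of 1.004 (0.874 to 1.15). Cd8a had 163 CPM in mutant and 198 CPM in wildtype ones, a ratio of 0.824 (0.759 to 0.895), and Cd8b1 had 501 and 589 CPM, a ratio of 0.850 (0.811 to 0.891). Cd28 and Thy1 were also lower in the mutant library, at 0.901 (0.862 to 0.942) and 0.908 (0.861 to 0.958). These intervals take UMIs as independent, although 1 cell can hold several. The intervals of Cd2, Cd5, Cd6, Cd27 and Cd44 include 1. Without T-like cells that met another class's marker sum, the Cd44 ratio was 0.726 (0.571 to 0.921).

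Cd8 was also found in a smaller share of mutant T-like cells, a count that rests on the same UMIs as the level. A Cd8a or Cd8b1 UMI was present in 42.3% (40.3 to 44.3) of mutant T-like cells and 49.4% (47.6 to 51.2) of wildtype ones. Within T-like cells with Cd8 alone, cells chosen by a Cd8 UMI, the levels were alike. There Cd8a had 354 CPM in the mutant and 367 CPM in the wildtype library, a ratio of 0.963 (0.886 to 1.05). Cd8b1 had 1086 and 1089 CPM, a ratio of 0.997 (0.951 to 1.05). After thinning, the T-like ratio of Cd8a was 0.888 with an interval of 0.763 to 1.03 that includes 1, and that of Cd8b1 was 0.841 (0.774 to 0.915). Thinned to 800 UMIs, 28.7% of mutant and 33.6% of wildtype T-like cells had a Cd8 UMI. Free RNA in the mutant library also held less Cd8, with ratios to the wildtype library of 0.477 (0.287 to 0.772) for Cd8a and 0.684 (0.516 to 0.902) for Cd8b1, and its part in the share was not tested. With 1 pool per genotype the spread between mice is unknown, and it is not shown that the share differs by genotype.

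**Figure D5:**
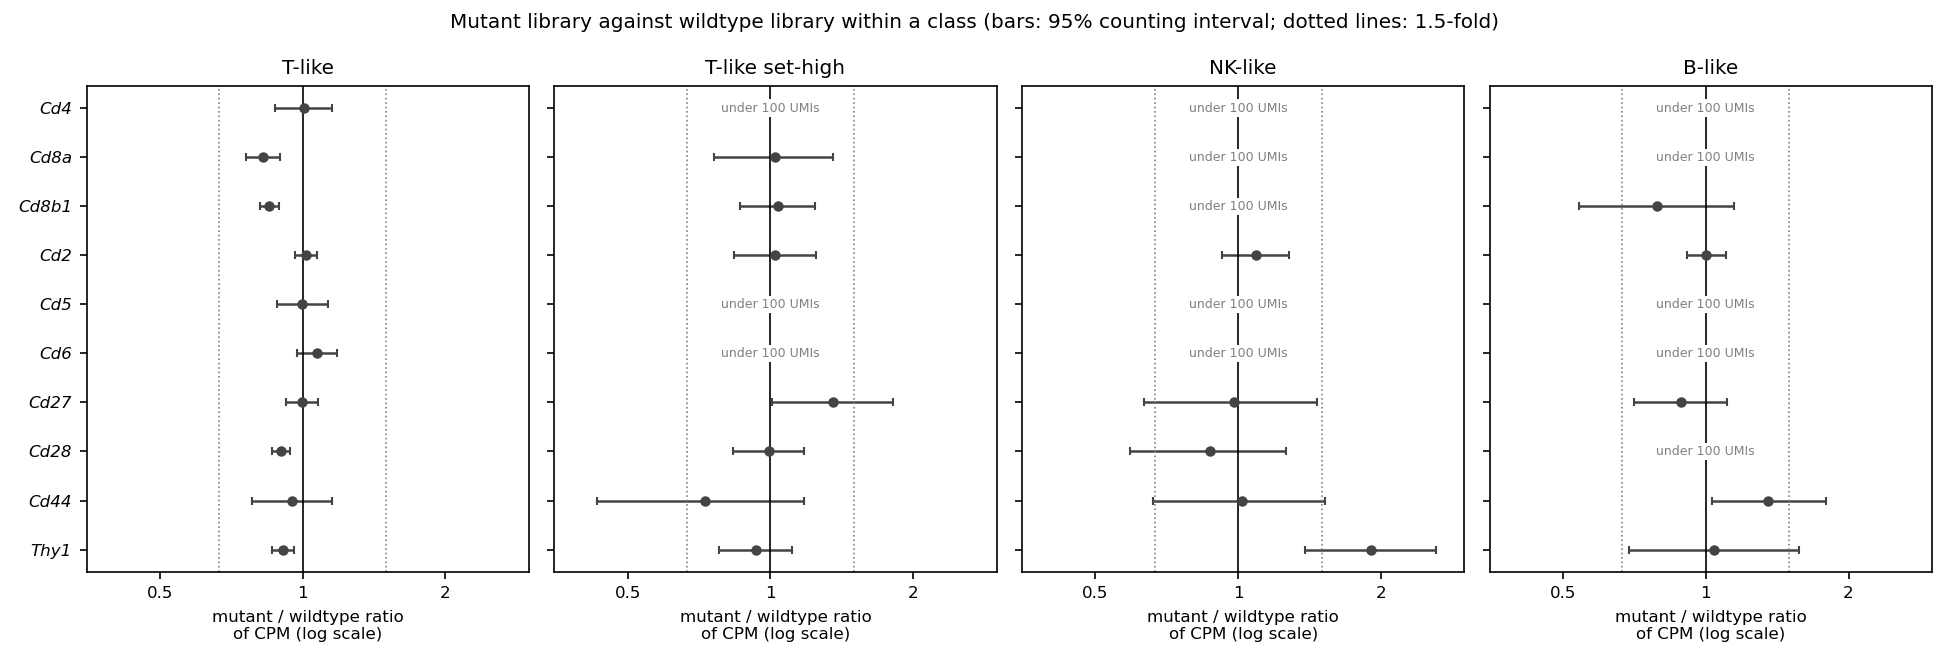
Ratio of the level in the mutant to that in the wildtype library (log scale) for each gene in all T-like, set-high T-like, NK-like and B-like cells, with 95% counting intervals and dotted lines at 1.5-fold. Genes under 100 UMIs are not drawn. Cd8a and Cd8b1 lie below 1 in T-like cells, and Thy1 in NK-like cells, at 1.91, is the 1 point past the fold.

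By subset, 0 of 7 measured members passed the fold between mutant and wildtype set-high cells (3.97% of all genes) and 0 of 10 between set-low cells (2.52%). The Cd8 difference was found in set-low cells, where Cd8a was at 156 and 193 CPM and Cd8b1 at 494 and 585 CPM in the mutant and wildtype libraries. In set-high cells Cd8a was at 217 and 212 CPM and Cd8b1 at 533 and 514 CPM, with ratios of 1.02 (0.761 to 1.36) and 1.04 (0.861 to 1.24). Whether the subsets differ in this was not tested. Cd27 had 229.6 CPM in mutant and 169 CPM in wildtype set-high cells, a ratio of 1.36 (1.01 to 1.81). Cd4 there rested on 13 mutant and 15 wildtype UMIs and Cd6 on 36 and 62, below the count asked for.

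In NK-like cells 1 of 5 measured members passed the fold (6.34% of all genes). Thy1 had 157 CPM in mutant and 82.2 CPM in wildtype NK-like cells, a ratio of 1.91 (1.38 to 2.61), and 25.3% of 178 mutant and 11.8% of 812 wildtype NK-like cells held a Thy1 UMI. Median depths were 2016 UMIs in mutant and 1673 in wildtype NK-like cells, and after thinning the shares were 8.43% and 5.54%, with a ratio of levels of 1.58 (0.869 to 2.74). A Cd3 UMI was found in 26.7% of Thy1-positive and 22.6% of Thy1-negative mutant NK-like cells, and in 26.0% and 20.5% of wildtype ones. Among NK-like cells with no Cd3 UMI the Thy1 ratio was 1.80 (1.21 to 2.64), at 138 CPM in 136 mutant and 76.6 CPM in 640 wildtype cells. Cd2, Cd27, Cd28 and Cd44 in NK-like cells had intervals that include 1. In B-like cells 0 of 5 measured members passed the fold (3.15% of all genes), and Cd44 was the nearest, at 62.8 CPM in mutant and 46.4 CPM in wildtype cells (1.35, 1.03 to 1.79). In monocyte-like cells Cd44 alone was measured and did not pass it (11.5% of all genes), at a ratio of 0.872 (0.658 to 1.16).

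Of the lists, 0 of 14 receptor and signalling genes, 0 of 9 measured costimulatory receptors, 0 of 8 measured ligands, 0 of 5 Cd4 lineage regulators and 0 of 9 naive T cell genes passed the fold between mutant and wildtype T-like cells. Of all measured genes 2.91% did, so counts of 0 in lists this short are no result about them. Cd160 (19.99 against 31.4 CPM), Eomes (11.4 against 18.7 CPM) and Tbx21 (5.34 against 9.89 CPM) were lower in the mutant library. Eomes and Tbx21 encode T-box factors of effector and memory T cells and NK cells. Set-high cells made up 4.19% of mutant and 7.84% of wildtype T-like cells, and 6 NK cell markers summed to 1254 CPM in mutant and 2038 CPM in wildtype T-like cells. The part of that make-up in the 3 values was not tested.

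Across the 10 points made of 5 classes in 2 libraries, each member was compared with 4347 other genes by Pearson r of log2(CPM + 10), as a description, since points share libraries and gates. Cd3d, which the T-like gate used, was among the 3 most similar genes of Cd8a, Cd8b1, Cd5, Cd6 and Cd27 (r of 0.991, 0.991, 0.983, 0.985 and 0.970). Bcl11b, a transcription factor of T cell identity that no gate used, was among those of Cd4, Cd8b1 and Cd6 (0.955, 0.993 and 0.988). The other genes among the 3 most similar were Ccdc53 and Peli1 for Cd4, Kbtbd11 and Cd3g for Cd8a, Klk8 for Cd8b1, Nsg2 and Cd3g for Cd5, Cd3g for Cd6, and Cd3e and Sidt1 for Cd27. The genes most like Cd2 were Gimap1, Tbc1d10c and Jakmip1, those most like Cd28 were Evl, Fam189b and Gtf2i, and those most like Thy1 were Icos, Lat and Tmsb10. Cd44 was most like Pgam1, Pglyrp1 and Dok1 (0.978, 0.977 and 0.974). Between members, Cd8a and Cd8b1 had an r of 0.985, and Cd44 and Cd2 an r of -0.861.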

How the data were processed

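The deposited files are whole-number UMI counts per gene and barcode that the authors made with Cell Ranger 2.1.1 on mm10, per the submitters' processing notes. Whether counting used the strand is not given in the sources used here. Barcodes with at least 800 UMIs, at least 200 genes and at most 10% mitochondrial UMIs were kept as cells, and 318 mutant and 34 wildtype barcodes failed the gene or mitochondrial limit. Classes were set by UMI sums of marker genes. T-like cells had at least 2 Cd3 UMIs, other classes at most 1, and cells meeting 2 other gates (18 mutant and 22 wildtype) went in no class. Counts were summed per class and divided by the class total (CPM). Ratios have exact conditional 95% binomial intervals, shares Clopper-Pearson intervals and levels Poisson intervals, and a count of 0 is limited at 3 counts, all covering counting error only. Intervals of ratios and levels take each UMI as independent, so several UMIs in 1 cell can make them too narrow. With 1 library per genotype no test between genotypes was run. No doublets were removed: 69 mutant and 133 wildtype cells scored above 0.2 in Scrublet and were left out in an alternative, and its own threshold marked 0.0716% of mutant cells, too few to be used.

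The members and lists were chosen with earlier results of these data known. Besides the 10 members, the text names the 3 genes most correlated with each, the 8 genes per side of the Cd4-positive against Cd8-positive comparison with the highest smaller ratio of the 2 libraries (members and provisional Gm and Rik names left out), and listed genes past 1.5-fold in both libraries or between libraries in T-like cells. Other listed genes are named where counts are small. A listed signalling gene is not reported here. Of 5 regulators of the Cd8 lineage 4 were found by symbol. Ratio intervals were tried on simulated independent Poisson counts, the model they assume, so that check cannot address several UMIs in 1 cell. Python 3.11.15, numpy 2.4.6, scipy 1.17.1, pandas 2.3.3, scanpy 1.11.5 and matplotlib 3.10.9 were used, with loci from GENCODE M21.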

Additional observations from a re-analysis of the deposited data

Results flagged for a closer look

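For 3 of the 10 antigens the set-high to set-low ratio lay on opposite sides of 1 in the libraries, and the difference between libraries was not tested. Cd8b1 had ratios of 1.08 (0.916 to 1.26) in the mutant and 0.878 (0.793 to 0.971) in the wildtype library. Without T-like cells that met another class's marker sum the wildtype ratio was 1.06, and with a stricter split the mutant ratio was 0.852, so the sides were no longer opposite in either case. Nor were they under scaling without ribosomal, mitochondrial and haemoglobin genes, where the mutant Cd8b1 ratio was 0.974. Cd27 had ratios of 1.14 (0.888 to 1.45) in the mutant and 0.817 (0.682 to 0.972) in the wildtype library. With the stricter split the mutant Cd27 ratio was 0.981 and the wildtype one 0.893, both below 1. Cd28 had ratios of 1.03 (0.885 to 1.196) in the mutant and 0.929 (0.845 to 1.02) in the wildtype library. The mutant Cd28 ratio was 0.968 under median-of-ratios scaling, 0.932 under the scaling without those genes and 0.785 after thinning, where the wildtype ratio was also below 1, at 0.871, 0.846 and 0.858. The opposite sides therefore depended on the setting for all 3 genes. All 3 mutant intervals and that of wildtype Cd28 include 1.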

How the results depend on the processing

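Across 15 other settings, 767 of 796 ratios of single members stayed inside their counting interval and 29 did not. These include members under 100 UMIs, whose intervals are too wide for most settings to leave. Cd4 between monocyte-like cells, with 1 UMI per library, had an interval of 0.0098 to 60.4. The settings also reuse the same UMIs, so the count does not show that the ratios are robust. A ratio lay on the other side of 1 in 67 of the 796, and in 66 of these the reported interval includes 1. The exception was the wildtype set-high to set-low ratio of Cd8b1, 0.878 as reported and 1.06 without T-like cells that met another class's sum. Of the 67, 4 had a reported ratio past the fold, all on few UMIs. These were the mutant to wildtype ratios of Cd5 in NK-like cells, 0.931 with at least 1200 UMIs per cell and 0 after thinning, and of Cd8a after thinning, 1.52 in NK-like and 1.36 in B-like cells. Measured members past the fold numbered 1 between libraries in set-high cells with free RNA subtracted, 1 in B-like cells with equal weight per cell and 0 in NK-like cells after thinning, and 4 between mutant set-high and set-low cells under the stricter split. The share of all measured genes past the fold was not computed under these settings, so these counts are no result about the members. After thinning, Cd8 shares were 4.90% of Cd4-positive and 30.2% of Cd4-negative mutant cells and 8.94% and 35.1% of wildtype cells, and Cd4 shares 0.993% of Cd8-positive and 7.76% of Cd8-negative mutant cells and 1.58% and 8.12% of wildtype cells. With at least 2 Cd8 UMIs asked, the Cd8 shares were 2.18% and 38.0% in the mutant library and 7.02% and 44.3% in the wildtype one, and the Cd4 shares of Cd8-positive cells 0.855% and 2.45%. With at least 3 Cd3 UMIs the Cd8 shares of Cd4-negative cells were 49.97% in the mutant library and 57.0% in the wildtype one. The Cd8b1 to Cd8a ratio was 1.41 in mutant set-high cells under the stricter split, and after thinning 3.25 in T-like and 3.37 in set-low wildtype cells. All genes past the fold between libraries with a minimum of 50 UMIs, and past 2-fold, numbered 461 and 55 in T-like, 297 and 11 in set-high, 405 and 49 in set-low, 577 and 25 (NK-like), 409 and 17 (B-like), and 282 and 44 (monocyte-like cells), and 2314 and 492 (mutant) and 1922 and 383 (wildtype) between set-high and set-low cells. Apart from thinning and the changed thresholds, the cause of these moves was not tested. Subtracting free RNA gave no value for B-like and monocyte-like cells. No paired analysis was possible because each genotype is 1 library. Depth limits Cd4, Cd5, Cd6 and Cd44 most, since most positive cells hold 1 UMI of them.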
